A study of Mus musculus with 10 samples.

Results

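Scaffolds, kinases and spine regulators of the excitatory postsynaptic density were followed as a group of 40 genes, chosen by symbol among the 35275 gene rows of the table, with the receptors left out. Each of the 40 symbols was found once. The RNA came from motor cortex taken at postnatal day 22 from mice of the C57BL/6 strain. Membralin, a membrane protein of the endoplasmic reticulum encoded by Tmem259, was deleted conditionally in astrocytes in 5 mice (KO), and 5 wild-type mice (WT) served as controls. The sources used here do not give the driver of the deletion, nor whether the WT mice carried an engineered allele. Levels are in FPKM, fragments counted on a gene, scaled to its length and to the total of the library. The question of the comparison is how cortical transcripts differ when astrocytes lack membralin, and the genes described here are mainly neuronal. In bulk tissue, fewer cells of a type and less RNA per cell cannot be told apart.

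The postsynaptic density is a protein layer under the membrane of excitatory synapses on dendritic spines. MAGUK proteins encoded by the Dlg genes hold glutamate receptors at the membrane, SAPAP proteins encoded by the Dlgap genes link them to Shank proteins, and Homer proteins bind Shank and group I metabotropic receptors. Calcium that enters through NMDA receptors binds calmodulin and activates CaMKII, the most abundant kinase of the layer, which is needed for long-term potentiation in forebrain neurons. Regulators of Ras, Rap, Rac and Arf GTPases then change the actin skeleton of the spine and the number of AMPA receptors.

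The libraries held between 22968013 and 27567361 fragments in KO and between 22793058 and 28827871 in WT, and a member of the group had at least 167 fragments in any library. The targeted gene, Tmem259, lies on chromosome 10 from 79974948 to 79984330 on the minus strand (mm10, ENSMUSG00000013858). Its level was 20.1, 18.5, 34.4, 16.9 and 26.2 FPKM in KO1 to KO5, against 25.5, 23.8, 25.01, 32.4 and 30.4 FPKM in WT1 to WT5. The library labelled KO3 had the highest value of the 10, and the genotypes did not differ past the threshold (log2 fold change -0.27, SE 0.16, limma adjusted p = 0.275). With KO3 set aside, Tmem259 had a log2 fold change of -0.42 (limma adjusted p = 0.0279). KO3 was picked out by its Tmem259 level, so leaving it out had to lower this value, and that fit is no check of the deletion. Only astrocytes were targeted, so other cells of the tissue contribute to the Tmem259 level. KO5 was also above WT1, WT2 and WT3, and 3 of the 5 KO libraries lay below every WT library. This bulk level cannot show whether a label is right, and results are given with and without KO3. The 5 libraries of a genotype are described as biological repeats, and p-values measure the spread between them. Omp, a marker of olfactory bulb tissue, was at least 1 FPKM in KO1 to KO4 and in WT3 and WT4, and below 1 FPKM in KO5, WT1, WT2 and WT5. Markers of cortical excitatory neurons were present in every library, with a summed level of 1010.0 to 1213 FPKM in KO libraries and 999 to 1111 FPKM in WT libraries, and none of the 12 was at 0 in every library.

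Members that were lower in KO cortex were found in every role except the receptor adaptors and anchors. Of the 40 members, 21 fell, 1 rose and 18 did not pass the test, at a limma adjusted p under 0.05. The adjustment ran over 14497 genes, those that averaged 0.5 FPKM or more. All 40 members passed that filter on low values. Among all genes tested, 3.51% were called lower and 9.77% higher. The median log2 fold change of the members was -0.26, against 0.08 over all genes tested, and 33 of the 40 members lay below 0, against 30.5% of all genes. The members were chosen with earlier results of these data known, so these shares describe them and are no independent test of the group. All fold changes given compare log2(FPKM + 1), KO minus WT. In 8 members every KO library lay below every WT library, which held for 1.85% of all genes, and no member had every KO library above every WT library, where 5.7% of all genes did. Exactly 4 of the 5 KO libraries lay below every WT library in 20 members, among them the other 13 called lower. The share of all genes with that pattern was not counted, so this count describes the members only. The library labelled KO3 was the highest KO value in all 21 members called lower, and within the WT range in 13 of them. Without it, 26 members fell and 2 rose, among them all 21, where 6.36% of all genes were called lower and 19.6% higher. With median-of-ratios scaling, which moved the calls over all genes to 653 higher and 817 lower in place of 1417 higher and 509 lower, 24 members fell and 0 rose, where 5.64% of all genes were called lower and 4.5% higher.

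The number of members past the threshold depended on the libraries and covariates in the fit. When a single library was left out, the count was 0 without KO2, without KO4 or without WT1, where 26, 25 and 27 members were lower at an unadjusted p under 0.05, against 6.62%, 6.5% and 6.59% of all genes. It was 9 without KO1 (1.26% of all genes lower), 11 without KO5 (1.83%), 12 without WT5 (1.77%), and 13 without WT2 (2.27%), without WT3 (2.23%) or without WT4 (2.31%). When KO3 and 1 more library were dropped together, 25 to 27 members and 4.6% to 6.17% of all genes were called lower. When the mean level of the olfactory bulb markers entered the fit as a covariate, limma called 0 members and 0 of all genes, which had 2956 at an unadjusted p under 0.05. At that level 21 members and 6.15% of all genes were lower, and the median log2 fold change of the members was -0.24. With the same covariate and KO3 dropped it called 19 members lower and 0 higher, where 3.65% of all genes were lower and 7.7% higher. Quantile scaling gave 24 members lower and 0 higher (5.45% and 4.26% of all genes), voom on recovered fragments 24 lower (3.98%), weights per library 27 lower (6.15%), and removal of a gene length trend 19 lower and 1 higher (4.04% and 4.52%). Median-of-ratios scaling with KO3 dropped gave 31 lower (9.88%). Among the 4 KO and 2 WT libraries with Omp of at least 1 FPKM, every KO library lay below every WT library in 16 members, against 6.87% of all genes. In those 6 libraries limma called 0 members. At an unadjusted p under 0.05, 16 members and 3.76% of all genes were lower, and the median log2 fold change of the members was -0.20. Among the libraries with Omp under 1 FPKM, which held 1 KO and 3 WT libraries and allow no test, KO5 lay below every WT library in 30 members, against 20.7% of all genes.

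**Figure D1:**
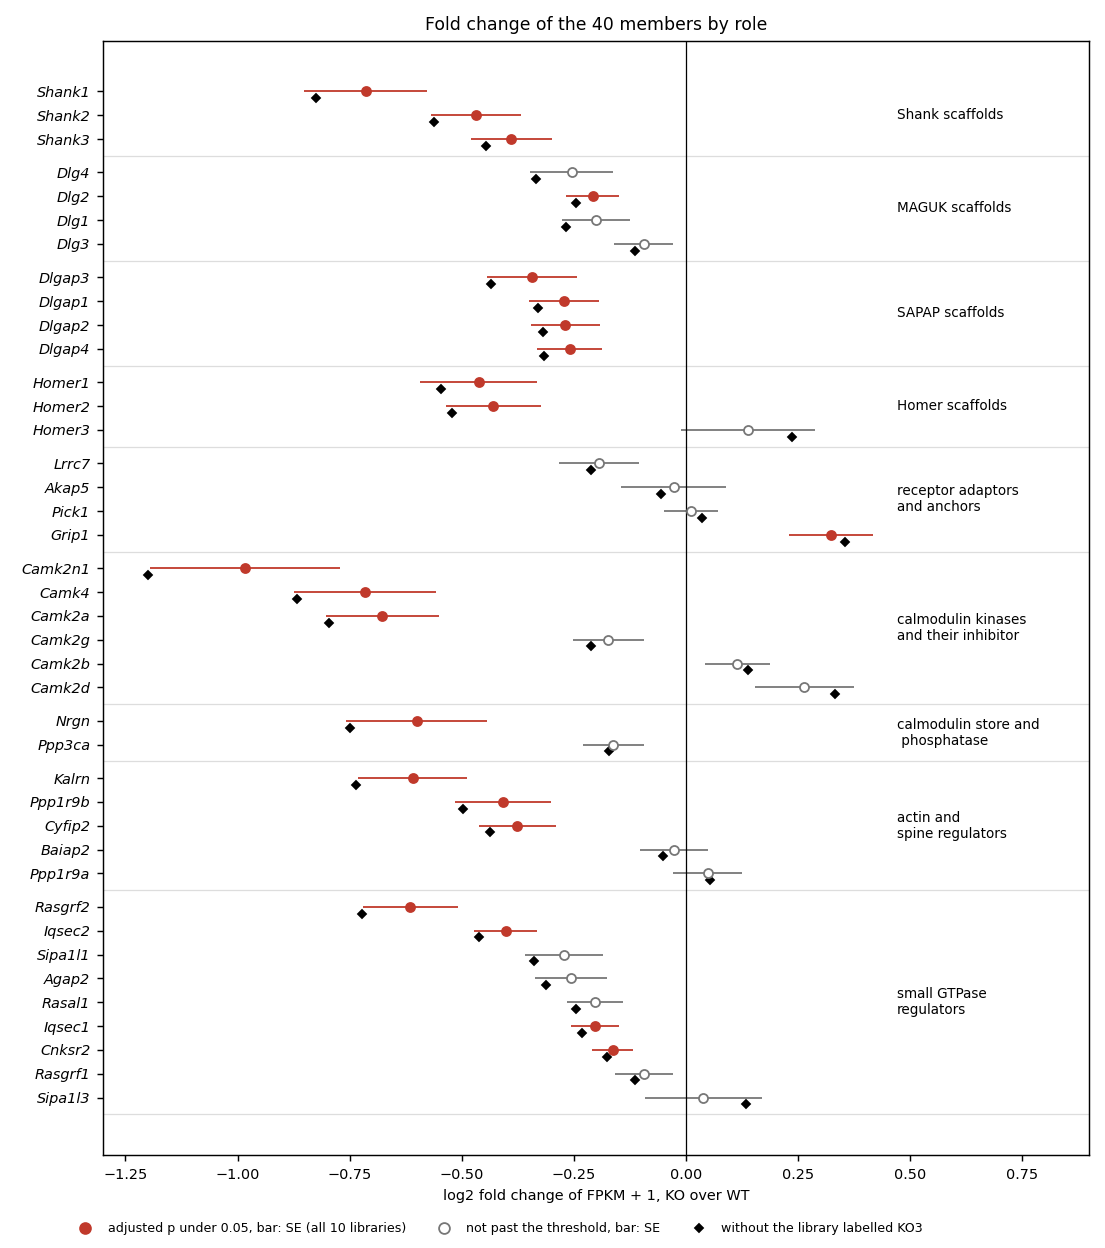
Log2 fold change of FPKM + 1 (KO over WT) of the 40 members, grouped by role, with its standard error over 5 KO and 5 WT libraries; diamonds show the value without the library labelled KO3. Filled red points are members past an adjusted p of 0.05, and 33 of the 40 points lie left of 0.

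All 3 Shank genes, which encode the master scaffolds deep in the postsynaptic density, fell. Shank1 (mm10 chromosome 7, 44310253 to 44358351, plus strand, ENSMUSG00000038738) measured 132, 117, 188, 116 and 147 FPKM in KO1 to KO5, against 275, 195, 226, 196 and 252.5 FPKM in WT1 to WT5. Every KO library lay below every WT library, and the library labelled KO3 came nearest to the WT range. Its mean was 140.1 ± 29.5 FPKM in KO and 229 ± 35.3 FPKM in WT (SD, n = 5 each), a ratio of 0.612 (log2 fold change -0.71, SE 0.14, limma adjusted p = 0.0186). The exact 2-sided permutation p was 0.00794, the smallest that 5 against 5 libraries allow, and all 8 members without overlap share it. Shank3 (mm10 chromosome 15, 89499623 to 89560261, plus strand, ENSMUSG00000022623) measured 63.8, 59.5, 73.3, 52.4 and 64.6 FPKM in KO1 to KO5, against 92.7, 86.9, 73.6, 74.5 and 83.7 FPKM in WT1 to WT5. The groups did not overlap here either, although KO3 and WT3 were almost level (log2 fold change -0.39, SE 0.09, limma adjusted p = 0.0234). Shank2 (mm10 chromosome 7, 144001928 to 144424494, plus strand, ENSMUSG00000037541) measured 26.4, 26.8, 37.4, 25.3 and 29.1 FPKM in KO1 to KO5, against 43.4, 35.1, 41.5, 37.8 and 43.5 FPKM in WT1 to WT5. Only KO3 lay within the WT range (log2 fold change -0.47, SE 0.10, limma adjusted p = 0.0196). Without the library labelled KO3 the log2 fold changes of Shank1, Shank2 and Shank3 were -0.83, -0.56 and -0.45. Exons of Shank1 overlap the antisense gene 1700008O03Rik over 339 bases, 3.22% of its exons, and that gene averaged 6.83 FPKM. Exons of Shank3 overlap the antisense gene Gm15609 over 2.95% of their bases, at 0.503 FPKM. Whether counting used the strand is not stated in the labels, so reads there are uncertain. Summed over the family, Shank transcripts were 232 ± 41.4 FPKM in KO and 352 ± 43.6 FPKM in WT (SD, n = 5 each). Shank1 made up 60.2 ± 1.97% in KO and 64.95 ± 2.34% in WT (SD, n = 5 each) of that sum, and Shank3 27.3 ± 1.84% in KO and 23.5 ± 2.38% in WT (SD, n = 5 each).

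The 4 SAPAP genes, which encode the link between the MAGUK proteins and Shank, fell by similar amounts. Dlgap3 (mm10 chromosome 4, 127169204 to 127237022, plus strand, ENSMUSG00000042388), the most abundant of them, measured 181, 176, 249, 167 and 205 FPKM in KO1 to KO5, against 257, 248, 225, 235 and 269 FPKM in WT1 to WT5. KO1, KO2, KO4 and KO5 were below every WT library and the library labelled KO3 was within their range (log2 fold change -0.34, SE 0.10, limma adjusted p = 0.0437). Dlgap1 measured 72.7, 76.2, 86.7, 70.7 and 63.7 FPKM in KO1 to KO5, against 93.6, 79.2, 92.1, 90.2 and 91.3 FPKM in WT1 to WT5, and WT2 was the one WT library below KO3 (log2 fold change -0.27, SE 0.08, limma adjusted p = 0.0407). Dlgap4 measured 70.1, 69.8, 84.2, 62.4 and 73.7 FPKM in KO1 to KO5, against 90.1, 81.3, 86.6, 82.1 and 90.5 FPKM in WT1 to WT5 (log2 fold change -0.26, SE 0.07, limma adjusted p = 0.0385). Its KO3 value lay between the WT values and the 4 other KO values below them. Dlgap2 measured 19.97, 19.7, 22.6, 16.2 and 20.3 FPKM in KO1 to KO5, against 24.8, 23.6, 25.9, 22.5 and 22.8 FPKM in WT1 to WT5 (log2 fold change -0.27, SE 0.08, limma adjusted p = 0.0406), again with KO3 alone inside the WT range. The share of each gene in the summed SAPAP level was nearly the same in the genotypes: Dlgap3 made up 53.98 ± 2.28% in KO and 55.3 ± 1.98% in WT (SD, n = 5 each), and Dlgap1 20.6 ± 2.03% in KO and 20.03 ± 1.26% in WT (SD, n = 5 each).

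Of the MAGUK genes only Dlg2 passed. Dlg2, which encodes PSD-93, measured 86.03, 90.6, 100.2, 85.9 and 90.2 FPKM in KO1 to KO5, against 114, 107, 99.6, 100.2 and 103 FPKM in WT1 to WT5 (log2 fold change -0.21, SE 0.06, limma adjusted p = 0.0392). KO3 lay among the WT libraries and the other 4 KO libraries below them. Dlg4, which encodes PSD-95 and was the most abundant of the family, measured 249.8, 299, 355, 263 and 264 FPKM in KO1 to KO5, against 322, 318, 346, 342 and 368 FPKM in WT1 to WT5 (log2 fold change -0.25, 95% confidence interval -0.46 to -0.05, limma adjusted p = 0.0821). As in Dlg2, KO1, KO2, KO4 and KO5 lay below every WT library, while KO3 exceeded 4 of the 5 WT libraries, and with KO3 dropped Dlg4 passed at -0.34 (limma adjusted p = 0.00628). Dlg1, encoding SAP97, was 32.7 ± 4.06 FPKM in KO and 37.6 ± 2.02 FPKM in WT (SD, n = 5 each), a log2 fold change of -0.20 (95% confidence interval -0.37 to -0.04, limma adjusted p = 0.0914), which became -0.27 (limma adjusted p = 0.00669) once KO3 was dropped. Dlg3, encoding SAP102, was 46.3 ± 3.43 FPKM in KO and 49.5 ± 3.67 FPKM in WT (SD, n = 5 each) with overlapping groups, a log2 fold change of -0.09 (95% confidence interval -0.24 to 0.05, limma adjusted p = 0.345). Dlg4 made up 62.6 ± 2.01% in KO and 63.8 ± 2.27% in WT (SD, n = 5 each) of the summed MAGUK level.

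The 2 Homer genes expressed most fell, and the third did not pass. Homer1 (mm10 chromosome 13, 93303757 to 93404129, plus strand, ENSMUSG00000007617) measured 44.6, 34.5, 52.8, 31.7 and 48.5 FPKM in KO1 to KO5, against 51.7, 59.99, 57.4, 53.4 and 67.7 FPKM in WT1 to WT5. KO3 was above WT1, and the other KO libraries were below every WT library (log2 fold change -0.46, SE 0.13, limma adjusted p = 0.0390). The row covers both the long scaffold forms and the short activity-induced form Homer1a, which the table does not separate. Homer2 measured 7.503, 8.56, 11.3, 8.11 and 7.81 FPKM in KO1 to KO5, against 13.7, 9.90, 12.3, 11.2 and 12.8 FPKM in WT1 to WT5 (log2 fold change -0.43, SE 0.11, limma adjusted p = 0.0272), with the same 4 KO libraries below all WT libraries. Homer3 was 4.03 ± 1.01 FPKM in KO and 3.55 ± 0.818 FPKM in WT (SD, n = 5 each), a log2 fold change of 0.14 (95% confidence interval -0.19 to 0.47, limma adjusted p = 0.550). Of its exon bases 25.4% overlap Ddx49 on the other strand, which averaged 9.46 FPKM, so the level of Homer3 is uncertain.

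**Figure D2:**
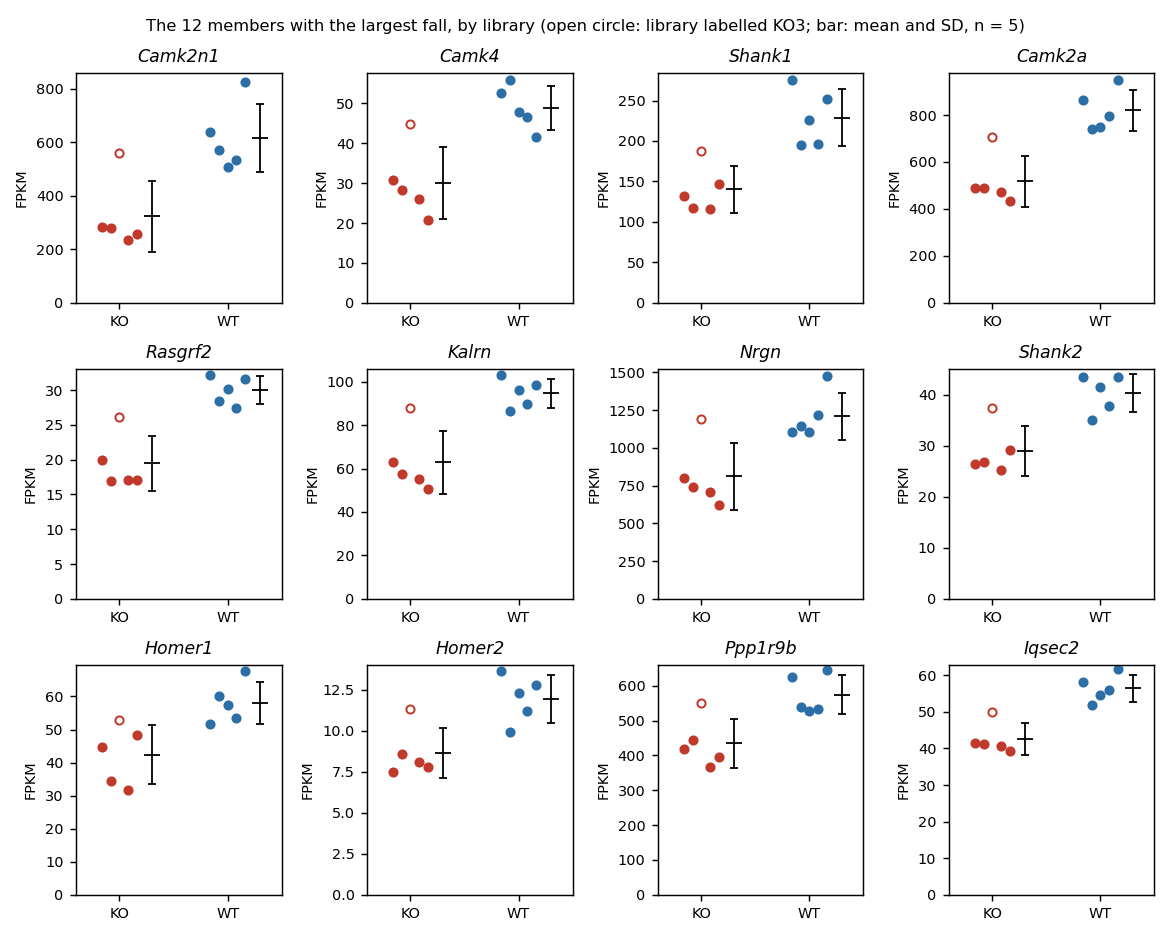
FPKM of the 12 members with the largest fall in each of the 5 KO and 5 WT libraries, on axes from 0, with the mean and SD beside each group. In each panel the open circle, the library labelled KO3, is the highest of the KO values.

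Promoter sequence was available for 31 of the 40 members in the RefSeq table of windows (GRCm38.p6, 250 bases before to 50 after a start), and the windows of 6 are shown because they belong to members that moved, with windows that start within 200 bases of the deposited gene's own start. They are the 4 members with the largest fall that have such a window (Rasgrf2, Nrgn, Homer1 and Homer2), Shank3 as the window with an EGR match, and Grip1 as the member that rose. Capitals mark the CRE core TGACG, which also lies inside the full CRE TGACGTCA, the EGR motif GCGTGGGCG and the GC box GGGCGG, searched on both strands, and matches of the last 2 can overlap. The windows lie at chr13:92131779-92132078, minus strand (Rasgrf2), chr9:37552696-37552995, minus strand (Nrgn), chr13:93303507-93303806, plus strand (Homer1), chr7:81706876-81707175, minus strand (Homer2), chr15:89499358-89499657, plus strand (Shank3) and chr10:119453784-119454083, plus strand (Grip1). Each is printed 5′ to 3′ on the strand of its gene.
Rasgrf2: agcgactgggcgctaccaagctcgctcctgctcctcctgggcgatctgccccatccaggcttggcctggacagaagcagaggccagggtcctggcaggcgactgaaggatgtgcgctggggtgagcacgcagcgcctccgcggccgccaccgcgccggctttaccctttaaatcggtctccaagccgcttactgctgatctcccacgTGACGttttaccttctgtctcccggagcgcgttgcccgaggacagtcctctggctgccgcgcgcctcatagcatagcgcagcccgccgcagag
Nrgn: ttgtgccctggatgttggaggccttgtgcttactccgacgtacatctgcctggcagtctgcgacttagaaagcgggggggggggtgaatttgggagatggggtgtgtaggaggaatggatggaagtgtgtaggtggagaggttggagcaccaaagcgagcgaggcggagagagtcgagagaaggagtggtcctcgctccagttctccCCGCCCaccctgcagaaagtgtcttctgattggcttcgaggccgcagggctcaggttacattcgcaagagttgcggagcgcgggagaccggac
Homer1: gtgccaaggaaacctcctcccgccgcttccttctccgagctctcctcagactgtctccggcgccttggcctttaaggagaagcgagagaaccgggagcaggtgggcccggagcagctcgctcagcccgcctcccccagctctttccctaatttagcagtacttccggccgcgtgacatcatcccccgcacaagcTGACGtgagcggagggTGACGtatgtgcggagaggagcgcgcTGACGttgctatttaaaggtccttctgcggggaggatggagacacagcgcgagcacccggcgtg
Homer2: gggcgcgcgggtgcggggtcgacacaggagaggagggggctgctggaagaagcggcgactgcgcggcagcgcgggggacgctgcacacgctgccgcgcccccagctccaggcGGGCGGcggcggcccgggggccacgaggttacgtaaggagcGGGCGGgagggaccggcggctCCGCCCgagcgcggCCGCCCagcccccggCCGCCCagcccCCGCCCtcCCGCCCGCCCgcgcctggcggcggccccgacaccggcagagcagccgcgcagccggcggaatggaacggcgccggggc
Shank3: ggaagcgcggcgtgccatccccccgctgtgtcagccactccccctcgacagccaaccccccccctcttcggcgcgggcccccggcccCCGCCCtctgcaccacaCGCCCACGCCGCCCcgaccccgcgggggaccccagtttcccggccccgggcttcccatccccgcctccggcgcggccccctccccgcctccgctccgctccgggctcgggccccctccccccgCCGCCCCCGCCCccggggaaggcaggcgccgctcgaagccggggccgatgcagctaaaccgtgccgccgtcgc
Grip1: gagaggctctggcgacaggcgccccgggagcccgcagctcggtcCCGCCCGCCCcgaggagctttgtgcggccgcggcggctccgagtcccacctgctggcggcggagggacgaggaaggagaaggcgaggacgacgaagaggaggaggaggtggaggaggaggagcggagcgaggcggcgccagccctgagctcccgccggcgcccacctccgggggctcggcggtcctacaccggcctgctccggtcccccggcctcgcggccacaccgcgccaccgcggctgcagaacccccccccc
The Homer1 window held 3 CRE cores, the Rasgrf2 window 1, and the Homer2 window 8 GC boxes. TGACG was found in 5 of the 15 windows of members called lower, in 2 of the 15 of members not called and in 20.8% of all 32851 windows. The GC box was in 8 of the 15 windows of members called lower, in 12 of the 15 of members not called and in 35.7% of all windows. The full CRE TGACGTCA was in none of the 31 windows and in 1.79% of all. GCGTGGGCG was in the Shank3 window alone among the 31 and in 0.612% of all. These counts take every window, some of which start far from the deposited gene's start. Of the 21 members whose window lies within 200 bases of it, TGACG was in 3 of 11 called lower and 1 of 9 not called, and the GC box in 6 of 11 and 8 of 9. The windows of the members held a median of 26 CpG dinucleotides, against 7 over all windows. CAGCTG was in 5 of the 31 windows and 16.3% of all and TATAAA in 1 and 13.6%. A match describes the letters of a window only.

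Of the 6 genes of the calmodulin-dependent kinases and their inhibitor, 3 fell. Camk2n1, which encodes an inhibitor protein of CaMKII, had the largest log2 fold change in size among the 40 members. Camk2n1 (mm10 chromosome 4, 138454314 to 138460123, plus strand, ENSMUSG00000046447) measured 283, 281, 558, 235 and 256 FPKM in KO1 to KO5, against 637, 571, 509, 533 and 826 FPKM in WT1 to WT5. KO1, KO2, KO4 and KO5 lay well below the lowest WT value and KO3 inside the WT range. Its ratio of means was 0.524 (log2 fold change -0.98, SE 0.21, limma adjusted p = 0.0198), while the KO libraries other than KO3 averaged 264 ± 22.6 FPKM (SD, n = 4). Camk2a (mm10 chromosome 18, 60925618 to 60988152, plus strand, ENSMUSG00000024617), the alpha subunit of CaMKII, measured 488, 491, 708, 473 and 432 FPKM in KO1 to KO5, against 863, 741, 750.3, 797 and 951 FPKM in WT1 to WT5. All KO libraries were below all WT libraries, with KO3 just under the lowest WT value. Its ratio of means was 0.632 (log2 fold change -0.68, SE 0.13, limma adjusted p = 0.0186). Camk4, a nuclear kinase that phosphorylates CREB, measured 30.7, 28.3, 44.9, 25.9 and 20.8 FPKM in KO1 to KO5, against 52.7, 55.8, 47.7, 46.5 and 41.5 FPKM in WT1 to WT5. The 4 KO libraries other than KO3 lay below the WT range (log2 fold change -0.72, SE 0.16, limma adjusted p = 0.0215). Camk2b, the actin-binding beta subunit, measured 269.6, 276, 252.3, 277 and 273 FPKM in KO1 to KO5, against 239.9, 247, 289, 255 and 218 FPKM in WT1 to WT5. The groups overlapped and the means were 269.5 ± 10.1 FPKM in KO and 249.7 ± 25.9 FPKM in WT (SD, n = 5 each), a log2 fold change of 0.11 (95% confidence interval -0.04 to 0.27, limma adjusted p = 0.292). Camk2d was 30.3 ± 4.36 FPKM in KO and 25.1 ± 3.43 FPKM in WT (SD, n = 5 each), a log2 fold change of 0.26 (95% confidence interval 0.02 to 0.50, limma adjusted p = 0.119). In 4 of the 5 KO libraries it was above every WT library. Without KO3, where 19.6% of all genes were called higher, Camk2d rose, with a log2 fold change of 0.33 (limma adjusted p = 0.0362). It passed in 4 of the 9 fits with KO3 and 1 further library left out, and not with median-of-ratios scaling without KO3. Camk2g was 52.95 ± 4.38 FPKM in KO and 59.9 ± 6.66 FPKM in WT (SD, n = 5 each), a log2 fold change of -0.17 (95% confidence interval -0.34 to -0.0023, limma adjusted p = 0.148).

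The make-up of the CaMKII family differed between the libraries. Camk2a was 57.98, 58.02, 67.8, 56.6 and 54.8 in KO1 to KO5, against 72.8, 69.3, 66.6, 70.2 and 75.5 in WT1 to WT5, in percent of the summed FPKM of Camk2a, Camk2b, Camk2d and Camk2g. The mean share was 59.04 ± 5.09% in KO and 70.9 ± 3.39% in WT (SD, n = 5 each). KO3 lay within the WT range and the other 4 KO libraries below it. Camk2b made up 31.3 ± 4.11% in KO and 21.7 ± 3.15% in WT (SD, n = 5 each) and Camk2d 3.55 ± 0.820% in KO and 2.19 ± 0.375% in WT (SD, n = 5 each). As a ratio within each library, which a single scaling factor per library leaves as it is, Camk2a to Camk2b was 1.81, 1.78, 2.81, 1.71 and 1.59 in KO1 to KO5, against 3.60, 2.999, 2.60, 3.13 and 4.37 in WT1 to WT5. In the same way Camk2n1 to the summed kinase level was 0.337, 0.332, 0.534, 0.282 and 0.324 in KO1 to KO5, against 0.538, 0.534, 0.452, 0.469 and 0.656 in WT1 to WT5. KO1, KO2, KO4 and KO5 were below every WT library in each ratio, and KO3 was not. These shares were computed from member levels already described and carry no test.

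**Figure D3:**
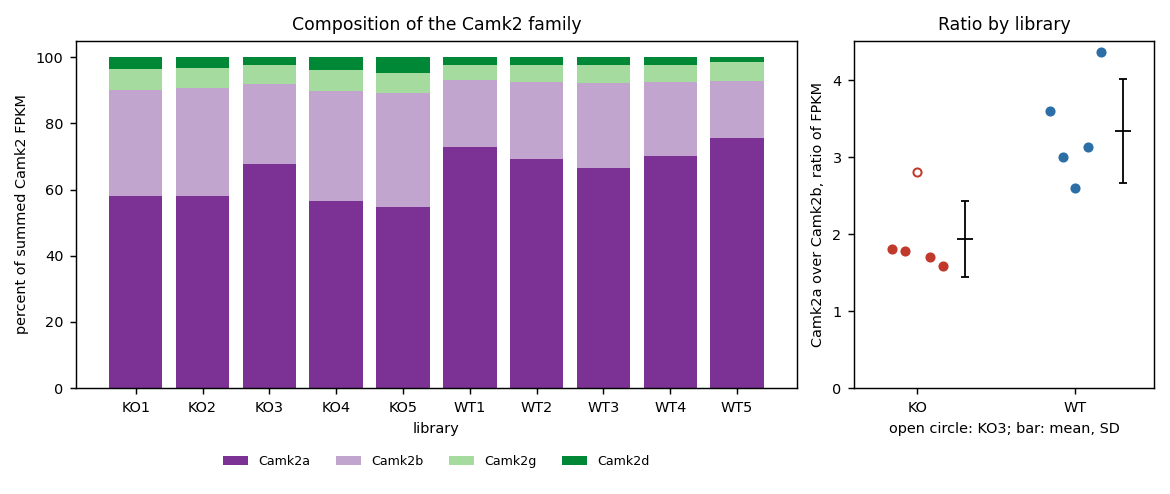
Left, share of each CaMKII gene in the summed Camk2 FPKM of each library, in percent; right, ratio of Camk2a to Camk2b FPKM per library with mean and SD (n = 5 each). The ratio lies between 1.59 and 1.81 in KO1, KO2, KO4 and KO5, is 2.81 in the library labelled KO3 (open circle), and lies between 2.60 and 4.37 in WT.

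Nrgn, the most abundant member, encodes neurogranin, which holds calmodulin in the spine at low calcium. Nrgn (mm10 chromosome 9, 37544492 to 37552904, minus strand, ENSMUSG00000053310) measured 798, 744, 1194, 708 and 621 FPKM in KO1 to KO5, against 1103, 1145, 1105, 1215 and 1477 FPKM in WT1 to WT5. KO3 exceeded 3 of the WT libraries and the other KO libraries lay well below all of them (log2 fold change -0.60, SE 0.16, limma adjusted p = 0.0319). Ppp3ca, the catalytic subunit of the phosphatase calcineurin, was 309.8 ± 23.9 FPKM in KO and 346 ± 17.9 FPKM in WT (SD, n = 5 each), a log2 fold change of -0.16 (95% confidence interval -0.31 to -0.01, limma adjusted p = 0.120). In 4 of the 5 KO libraries Ppp3ca was below every WT library.

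Of the 5 regulators of the actin skeleton 3 fell. Kalrn, a Rac exchange factor that enlarges spines, measured 62.9, 57.3, 87.9, 55.2 and 50.6 FPKM in KO1 to KO5, against 103, 86.3, 95.98, 89.8 and 98.5 FPKM in WT1 to WT5. KO3 was just above the lowest WT library and the 4 others were far lower (log2 fold change -0.61, SE 0.12, limma adjusted p = 0.0186). Ppp1r9b, or spinophilin, which brings protein phosphatase 1 to spines, measured 417, 444, 549, 368 and 396 FPKM in KO1 to KO5, against 624, 541, 529, 533 and 645 FPKM in WT1 to WT5. KO3 was again the one KO library inside the WT range (log2 fold change -0.41, SE 0.11, limma adjusted p = 0.0326). Cyfip2, a subunit of the WAVE complex that controls actin branching, measured 153, 152, 174, 141 and 121 FPKM in KO1 to KO5, against 196, 186, 187, 182 and 206 FPKM in WT1 to WT5. Here every KO library was below every WT library (log2 fold change -0.38, SE 0.09, limma adjusted p = 0.0227). Ppp1r9a, or neurabin, the paralog of spinophilin, was 56.4 ± 4.11 FPKM in KO and 54.6 ± 5.94 FPKM in WT (SD, n = 5 each) with overlapping groups, a log2 fold change of 0.05 (95% confidence interval -0.12 to 0.22, limma adjusted p = 0.694). Baiap2, or IRSp53, which bends the membrane downstream of Rac, was 65.7 ± 5.40 FPKM in KO and 66.998 ± 6.44 FPKM in WT (SD, n = 5 each), a log2 fold change of -0.03 (95% confidence interval -0.19 to 0.14, limma adjusted p = 0.832).

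Of the 9 regulators of small GTPases 4 fell, all with every KO library below every WT library. Rasgrf2 (mm10 chromosome 13, 91880400 to 92131656, minus strand, ENSMUSG00000021708), a calcium-dependent exchange factor for Ras, measured 19.96, 16.96, 26.2, 17.1 and 17.1 FPKM in KO1 to KO5, against 32.2, 28.4, 30.2, 27.4 and 31.6 FPKM in WT1 to WT5. The highest KO value, in KO3, stayed under the lowest WT value (log2 fold change -0.61, SE 0.11, limma adjusted p = 0.0181). Iqsec2, an exchange factor for Arf6, measured 41.4, 41.3, 50.1, 40.7 and 39.2 FPKM in KO1 to KO5, against 58.1, 51.9, 54.5, 56.1 and 61.6 FPKM in WT1 to WT5. No KO library reached the WT range (log2 fold change -0.40, SE 0.07, limma adjusted p = 0.0182). Its paralog Iqsec1 measured 61.1, 57.4, 65.2, 55.99 and 60.1 FPKM in KO1 to KO5, against 71.9, 67.6, 67.5, 66.2 and 72.4 FPKM in WT1 to WT5, also without overlap but by a smaller amount (log2 fold change -0.20, SE 0.05, limma adjusted p = 0.0321). Cnksr2, a scaffold of Ras signalling, measured 46.1, 43.3, 46.5, 44.8 and 44.4 FPKM in KO1 to KO5, against 53.1, 51.05, 50.8, 50.9 and 47.02 FPKM in WT1 to WT5 (log2 fold change -0.16, SE 0.05, limma adjusted p = 0.0399). Its groups were separate by the narrowest margin of these, KO3 being next to WT5. Rasal1, a Ras GTPase activator, Agap2, an Arf GTPase activator, and Sipa1l1, a Rap GTPase activator of spines, did not pass by a small margin, with limma adjusted p of 0.0502, 0.0518 and 0.0555 and log2 fold changes of -0.20, -0.26 and -0.27. In each of those 3 genes KO1, KO2, KO4 and KO5 were below every WT library, and each passed with median-of-ratios scaling and without KO3. Rasgrf1, the paralog of Rasgrf2, was 51.9 ± 2.60 FPKM in KO and 55.6 ± 5.15 FPKM in WT (SD, n = 5 each), a log2 fold change of -0.09 (95% confidence interval -0.23 to 0.05, limma adjusted p = 0.331), and Sipa1l3 was 13.1 ± 2.85 FPKM in KO and 12.6 ± 1.53 FPKM in WT (SD, n = 5 each), a log2 fold change of 0.04 (95% confidence interval -0.24 to 0.32, limma adjusted p = 0.862). The ratio of Rasgrf2 to Rasgrf1 was 0.400, 0.311, 0.478, 0.346 and 0.337 in KO1 to KO5, against 0.615, 0.544, 0.471, 0.482 and 0.606 in WT1 to WT5.

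The receptor adaptors and anchors held the member that rose. Grip1, a PDZ protein that binds the AMPA receptor subunit GluA2, measured 6.39, 5.55, 5.32, 5.91 and 6.25 FPKM in KO1 to KO5, against 4.42, 4.71, 5.52, 4.63 and 3.40 FPKM in WT1 to WT5. KO1, KO2, KO4 and KO5 were above every WT library and KO3 was inside the range (log2 fold change 0.32, SE 0.09, limma adjusted p = 0.0430). It did not pass with median-of-ratios scaling (log2 fold change 0.26, limma adjusted p = 0.0734). Pick1, which competes with Grip1 for the same receptor tail, was 14.6 ± 0.574 FPKM in KO and 14.5 ± 1.20 FPKM in WT (SD, n = 5 each), a log2 fold change of 0.01 (95% confidence interval -0.12 to 0.14, limma adjusted p = 0.911). Akap5, which anchors protein kinase A and calcineurin at the synapse, was 27.6 ± 3.09 FPKM in KO and 28.4 ± 5.02 FPKM in WT (SD, n = 5 each), a log2 fold change of -0.03 (95% confidence interval -0.28 to 0.23, limma adjusted p = 0.896). Lrrc7, or densin, which binds CaMKII, was 21.8 ± 1.34 FPKM in KO and 25.2 ± 3.54 FPKM in WT (SD, n = 5 each), a log2 fold change of -0.19 (95% confidence interval -0.39 to -0.0013, limma adjusted p = 0.150).

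The levels of the 40 genes spanned a wide range in FPKM, which is a level per gene length. In WT cortex Nrgn was highest at 1209 FPKM, followed by Camk2a, Camk2n1, Ppp1r9b and Agap2, and Homer3 was lowest at 3.55 FPKM, below Grip1 at 4.54 FPKM. In KO cortex the order changed little: no gene moved by more than 6 places, and Nrgn and Camk2a held places 1 and 2 in KO and WT alike, while Camk2n1 was at place 5 in KO and place 3 in WT. Of the 39 pairs of neighbours in the WT order, 32 had overlapping ranges over the 5 WT libraries. The order of the 2 genes of a pair within each library was not compared. The ranges of Nrgn and Camk2a did not overlap.

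**Figure D4:**
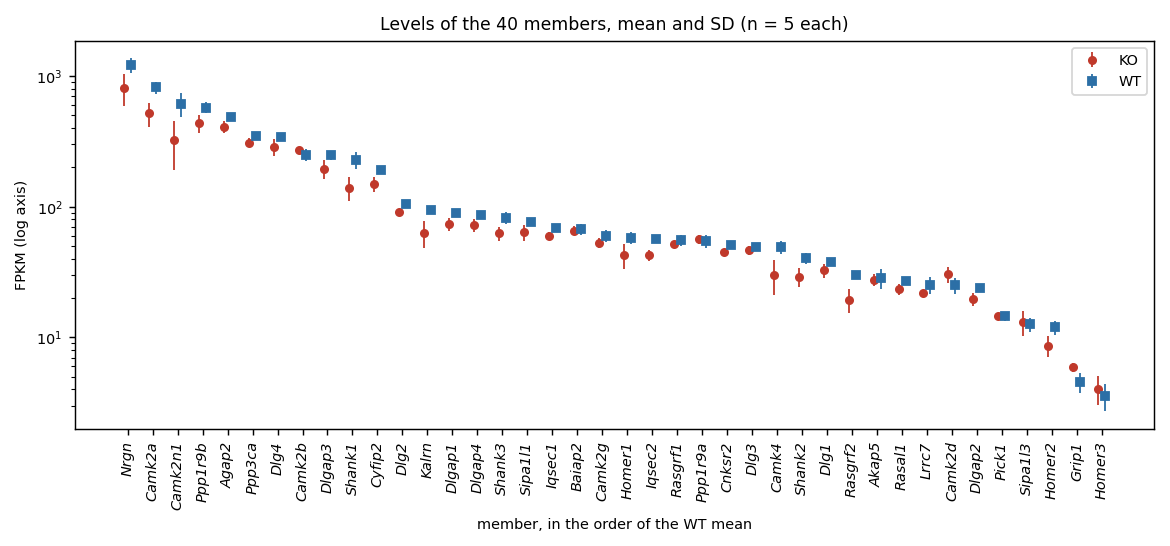
Mean FPKM with SD (n = 5 each) of the 40 members in KO and WT cortex, in the order of the WT mean, on a log axis. KO points lie below WT points for most members, and Camk2b, Camk2d and Grip1 are among those that do not.

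Other genes of the postsynaptic density moved too. Of 69 further genes on a list of its kinases, phosphatases, adaptors and actin regulators, 11 fell, 1 rose and 57 did not pass. Over all genes 3.51% were called lower and 9.77% higher. The median log2 fold change of the 69 was -0.05. Every KO library lay below every WT library in 5 of the 69, against 1.85% of all genes, and above in 1, against 5.7%. The only gene of the 69 called higher was Grip2, the paralog of Grip1 (log2 fold change 0.32, limma adjusted p = 0.0375). Camkk2, the kinase that activates Camk4, was 52.6 ± 23.96 FPKM in KO and 101 ± 6.26 FPKM in WT (SD, n = 5 each), a log2 fold change of -1.02 (limma adjusted p = 0.0186). Prkcb, a protein kinase C, was 182 ± 28.2 FPKM in KO and 249 ± 11.8 FPKM in WT (SD, n = 5 each) and had no overlap between the groups, a log2 fold change of -0.46 (limma adjusted p = 0.0186). Synpo, the actin-binding protein synaptopodin, was 44.8 ± 7.97 FPKM in KO and 61.3 ± 4.06 FPKM in WT (SD, n = 5 each), a log2 fold change of -0.46 (limma adjusted p = 0.0196). Camk2n2, the paralog of Camk2n1, was 51.7 ± 5.64 FPKM in KO and 67.4 ± 10.2 FPKM in WT (SD, n = 5 each), without overlap, a log2 fold change of -0.37 (limma adjusted p = 0.0324). Git1, Psd and Begain fell by 0.38, 0.36 and 0.34 on the log2 scale. Of 24 glutamate receptor genes 2 fell and 2 rose, and of 36 presynaptic genes of the active zone and release 7 fell and 1 rose. With median-of-ratios scaling 17 of the 69 fell and 0 rose, where 5.64% of all genes were called lower and 4.5% higher. Without KO2, without KO4 or without WT1 none of the 69 passed. The difference between these lists and the 40 members was not tested.

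Markers of cell types and regions differed between the same libraries. Among all genes tested, 3.51% were called lower and 9.77% higher. Those shares were 5.64% and 4.5% with median-of-ratios scaling, and 6.36% and 19.6% without KO3. Of 12 markers of cortical excitatory neurons 5 fell and 2 rose. Their median log2 fold change was -0.19, and 9 of the 12 lay below 0, against 30.5% of all genes. The median deviation of these 12 from the WT mean, on the log2(FPKM + 1) scale, was 0.02, -0.36, -0.06, -0.03 and -0.47 in KO1 to KO5. For the 40 members it was -0.28, -0.23, -0.06, -0.35 and -0.28 in the same libraries and between -0.06 and 0.06 in WT. Of the 40 members, 28, 28, 10, 31 and 30 lay below every WT library in KO1 to KO5, against 12.9%, 15.9%, 11.8%, 14% and 17.7% of all genes. The members were lower in KO1 and KO4 while the median of the excitatory markers there lay near the WT mean, and KO2 and KO5 were low in each. The mean log2(FPKM + 1) of the 12 markers was 4.603, 4.376, 4.645, 4.539 and 4.248 in KO1 to KO5, against 4.599 to 4.698 in WT. By that mean KO4 too lay below every WT library, and KO1 lay at the low end of the WT range. With a score of those markers as a covariate limma called 0 members and 0 genes, of which 2185 had an unadjusted p under 0.05. At that level 18 members and 3.36% of all genes were lower, and the median log2 fold change of the members was -0.18. Of 10 pan-neuronal genes 2 rose and none fell, against 2 lower and 0 higher with median-of-ratios scaling and 2 lower and 3 higher without KO3. GABAergic interneuron markers had a summed level of 379.6 to 551 FPKM in KO libraries and 264 to 354 FPKM in WT libraries, and 6 of 9 rose and 1 fell. Striatal projection neuron markers summed to 524 to 671 FPKM in KO libraries and 213 to 682 FPKM in WT libraries, with 3 of 9 called higher, and olfactory bulb markers to 16.04 to 78.4 FPKM in KO libraries and 6.65 to 38.6 FPKM in WT libraries, with 2 of 10 called higher. Astrocyte markers summed to 779.6 to 1393 FPKM in KO libraries and 772 to 883 FPKM in WT libraries (2 of 8 rose), microglial markers to 167 to 242 FPKM in KO libraries and 136 to 172 FPKM in WT libraries (3 of 8 rose), endothelial markers to 76.2 to 105 FPKM in KO libraries and 71.6 to 83.8 FPKM in WT libraries (1 of 6 rose) and oligodendrocyte markers to 1512 to 2156 FPKM in KO libraries and 1943 to 2388 FPKM in WT libraries (1 of 8 fell). All 8 oligodendrocyte markers had a log2 fold change below 0, against 30.5% of all genes, and 4 were called lower with median-of-ratios scaling and 6 without KO3. Of 16 activity-induced genes 4 fell, Egr1, Egr4, Fosl2 and Nr4a3, and all 16 had a log2 fold change below 0, against 30.5% of all genes. The summed level of the 16 was 154 to 262 FPKM in KO libraries and 262 to 400.3 FPKM in WT libraries. With median-of-ratios scaling 3 of the 9 interneuron markers and 0 of the 12 excitatory markers were called higher. No marker was at 0 in every library. The part of these tissue and cell type differences in the fall of the postsynaptic genes was not tested beyond the fits given above.

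**Figure D5:**
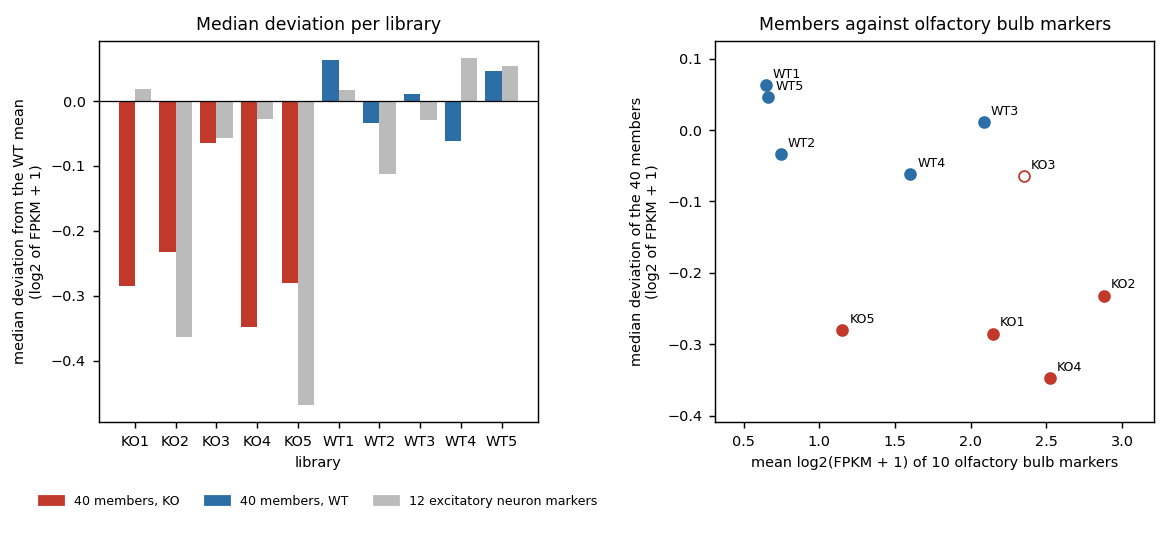
Left, median deviation from the WT mean of log2(FPKM + 1) per library for the 40 members (coloured) and 12 excitatory neuron markers (grey); right, the same deviation of the members against the mean log2(FPKM + 1) of 10 olfactory bulb markers. KO1, KO2, KO4 and KO5 lie below every WT library on the vertical axis, while KO3 and WT4 lie level at -0.06.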

How the data were processed

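Messenger RNA of motor cortex was sequenced in 5 KO and 5 WT mice. The authors deposited 1 table of FPKM per gene and library with gene length and coordinates, per the file headers. Per the submitters' processing notes, mm10 and DESeq2 were used, in roles that are not stated. The sources used here give neither the aligner nor the counter. FPKM multiplied by gene length and divided by the smallest step of its library, the value of 1 fragment, gave whole fragments within 0.02 for all values, and library totals are the sums of these.

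The FPKM values were tested as log2(FPKM + 1) with limma 3.58.1 (R 4.3.3; trended empirical Bayes, genotype as the only term), on 14497 genes that averaged 0.5 FPKM or more. Tests were 2-sided with Benjamini-Hochberg adjustment over all of these genes and a threshold of 0.05. The log2 fold changes run KO minus WT on the log2 of the deposited FPKM plus 1, which understates changes of genes with low levels. The exact permutation test used the 252 assignments of libraries to genotypes. The procedure was run on simulated data, in which genes were drawn independently and no library was shifted as a whole. That run therefore cannot vouch for the calls in these libraries. Members and lists were chosen with earlier results of these data known. Values in every library are given for the members called; those of Dlg4 and Camk2b, and the names Grip2, Egr1, Egr4, Fosl2 and Nr4a3, were added after their values were seen. Of the other postsynaptic density genes, those called with the largest change are named, up to 8, of which 1 is not reported here.

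Alternatives were another pseudocount, other filters, median-of-ratios and quantile scaling, voom on recovered fragments, library weights, a replicate block, marker scores as covariates, removal of a gene length trend and leaving out libraries. Fits on the libraries with Omp of at least 1 FPKM, with KO3 and 1 further library left out, and with median-of-ratios scaling without KO3 were chosen after seeing the data. Depth sets the precision of each value, and intervals here rest on the spread between libraries, not on counting error. Motifs were searched in RefSeq promoter windows (GRCm38.p6) with Python 3.11.15.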

Additional observations from a re-analysis of the deposited data

Results flagged for a closer look

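Of 86 sets of 5 libraries examined, 9 held a library that stood apart from the other 4, and in 7 of the 9 it was the library labelled KO3. For independent sets chance gives about 1 in 20. These sets share libraries, and the level, share and ratio of Camk2a rest on the same values, so that rate does not apply to them. Among KO libraries, KO3 was apart for Camk2a at 708 FPKM, for Camk2n1 at 558 FPKM, for Iqsec2 at 50.1 FPKM and for Homer2 at 11.3 FPKM, all above the other KO libraries. KO3 was also apart for Pick1, at 13.6 FPKM the lowest of the KO libraries. The share of Camk2a in the CaMKII family, 67.8% in KO3, and its ratio of Camk2a to Camk2b, 2.81, lay above those of the other KO libraries. Among WT libraries, WT2 was apart for Dlgap1 at 79.2 FPKM, the lowest, and WT5 for Camk2g at 71.4 FPKM, the highest. The cause was not tested.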

How the results depend on the processing

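None of the 693 alternative values of the 21 members called lower changed its direction. The number of members called lower was 6 with no filter, where 118 of 25406 genes were called lower. That number was 0 with an olfactory bulb score, with an excitatory neuron score, or in the libraries with Omp of at least 1 FPKM alone. It ranged over 0 to 26 when each library was left out and over 25 to 27 with KO3 and 1 further library left out. The number called higher was 0 with no filter, median-of-ratios or quantile scaling, the replicate block, the olfactory bulb score with or without KO3, the excitatory score, the Omp libraries, and median-of-ratios scaling without KO3, and 0 to 2 when libraries were left out.

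Over all genes, calls numbered 465 with no filter, 3557 with library weights, 1271 with the replicate block, 1241 with the length trend removed, 0 with either score, 1 in the Omp libraries, 2903 with median-of-ratios scaling without KO3, 2 to 3769 with a library left out, and 2407 to 3437 with KO3 and 1 further library left out. In the Omp libraries 1911 genes had an unadjusted p under 0.05. Of the other 69 postsynaptic density genes, 4 were called with no filter, all lower, and 0 with either score or in the Omp libraries. The count was 22 with library weights, 16 lower and 6 higher, where 6.15% of all genes were lower and 18.4% higher. It was 25 with median-of-ratios scaling without KO3, all lower, where 9.88% of all genes were lower and 10.1% higher. It ranged over 0 to 24 with a library left out and over 15 to 24 with KO3 and 1 further library left out. Without KO3 alone, the 24 were 17 lower and 7 higher, where 6.36% of all genes were lower and 19.6% higher. The Tmem259 log2 fold change was -0.51 with median-of-ratios scaling without KO3 (limma adjusted p = 0.0181), -0.42 to -0.17 with a library left out and -0.54 to -0.34 with KO3 and 1 further library left out. Because KO3 had the highest Tmem259 value, leaving it out had to lower that fold change. The cause of the other shifts was not tested.

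With the replicate block, 15 members were called lower, all among the 21, where 387 of 14497 genes were called lower and 884 higher. Deviations from the group means correlated between same-numbered libraries at 0.138, -0.043, -0.057, 0.139 and 0.114, so the numbers were not taken as pairs. KO4 and KO5 alone matched best the WT library of their own number.

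Reversals were limited to members that did not pass. Dlg3 was 0.0052 with the excitatory score, and Camk2b -0.015 in the Omp libraries. Pick1 was -0.064 with median-of-ratios scaling, -0.053 with quantile scaling, -0.0065 and -0.019 with the olfactory bulb and excitatory scores, -0.073 with the length trend removed and -0.053 with median-of-ratios scaling without KO3. Ppp1r9a was -0.031 with median-of-ratios scaling, -0.012 and -0.0055 with the olfactory bulb score with and without KO3, and -0.038 with median-of-ratios scaling without KO3. Sipa1l3 was -0.036 with median-of-ratios scaling, -0.030 with quantile scaling and -0.11 in the Omp libraries. With a library left out, Akap5 ranged from -0.13 to 0.048, Pick1 from -0.025 to 0.048, Baiap2 from -0.062 to 0.023, Ppp1r9a from -0.0031 to 0.10 and Sipa1l3 from -0.046 to 0.13. With KO3 and 1 further library left out, Akap5 ranged from -0.15 to 0.031, Pick1 from -0.0011 to 0.072, Sipa1l3 from 0.053 to 0.24 and Baiap2 from -0.086 to 0.0043.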
